A study of Homo sapiens with 4 samples.

Results

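Of the 20252 gene symbols in the deposited expression table of H2030 cells, 46 are genes of G2 and mitosis, and these are described here. They were chosen by symbol, with earlier results of these data known. They run from cyclin B and its kinase to the proteins of the spindle, the kinetochore and the cleavage furrow. SGO1 is listed under its older symbol, SGOL1. H2030 is an established human lung adenocarcinoma line. Poly(A) RNA was sequenced from 4 libraries: 2 labelled as carrying an overexpressed control vector and 2 labelled as overexpressing GALNT3, an enzyme of the Golgi that starts mucin-type O-glycosylation. All 4 share one culture protocol: cells of passage 5 to 10, kept for 2 days in RPMI with 10% fetal bovine serum, with no treatment recorded. The labels number the libraries 1 and 2 within each group. They do not say what a number shares, whether the libraries came from separate cultures, whether the lines were pools or single clones, or which promoter drove the vector, so the spread that p-values rest on here may be technical.

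Entry into mitosis is set by cyclin B bound to CDK1, which CDC25 phosphatases switch on. The spindle checkpoint then holds back the anaphase-promoting complex until every kinetochore is attached, after which the complex marks securin and the cyclins for destruction. Transcription of these genes is low in G1, when the DREAM complex represses them, and high in G2, when its MuvB core binds MYBL2 and FOXM1 instead. MuvB acts at a promoter element known as the cell cycle homology region (TTTGAA and close variants). Many of the promoters also hold CCAAT boxes, which NF-Y binds. In bulk RNA, more cells in G2 or mitosis and more transcript per cell cannot be told apart.

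GALNT3 itself went against its label. It stood at 4.34 and 5.34 FPKM (fragments scaled by transcript length and library total) in the libraries labelled vector, numbers 1 and 2, and fell to 0.0164 and 0 FPKM where the label is overexpression. The difference, labelled overexpression minus vector, was -2.53 ± 0.13 (SE) on the log2(FPKM + 1) scale (adjusted p = 3.78e-04, limma with Benjamini-Hochberg adjustment). GALNT3 lies at chr2:165747591-165794682 on the minus strand of GRCh38. Groups are therefore named below by their labels, and no direction is read as an effect of more or less GALNT3. The keratins KRT8 and KRT18 stood between 109 and 439 FPKM, whereas EPCAM, CDH1 and NKX2-1 stayed below 1.40 FPKM and KRT19 is listed at 0 in every library. The summed level of the 7 epithelial markers was lowest in vector 2, at 448 FPKM, and highest in overexpression 1, at 590 FPKM. Of the blood markers reported, CD68 stood at 29.3 and 27.2 FPKM in the vector libraries and at 17.1 and 16.3 FPKM in the overexpression libraries, CD14 and PTPRC were at most 1.31 FPKM, and CD3E is listed at 0. The part of these levels in the results below was not tested. The fibroblast markers summed to at most 4.96 FPKM and the endothelial markers to at most 0.638 FPKM in any library.

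Promoters of 38 members are held in the RefSeq table (GRCh38.p14) used here, as windows of 300 bases from 250 before to 50 after the gene start. The motif TTTGAA, read on both strands (TTTGAA or TTCAAA), was in 26 of the 38 windows, or 68.4%, against 9.26% of 8044 windows of tested genes and 15.4% of all 27305 windows. In 16 of the 26 it began within 60 bases upstream of the start. CCAAT, read as CCAAT or ATTGG, was in 30 windows (78.9%, against 37.0% and 35.7%), and 18 windows (47.4%, against 14.0% and 11.3%) held it at least 2 times. Both motifs stood in 22 windows (57.9%, against 4.10% and 6.08%) and neither in 4. These are matches of letters, not binding sites. Only the listed window of each gene was read, so other annotated starts were not scanned. Printed are the most abundant member with a window from each of the first 6 role groups (cyclins and their regulators, mitotic kinases, spindle checkpoint, kinetochore, anaphase, spindle), so that promoters with and without TTTGAA can be set side by side. HJURP was added after its values had been seen, as the member that differed most between replicate numbers. Capitals mark TTTGAA or TTCAAA and CCAAT or ATTGG, and each sequence reads in the direction of its gene.
CKS1B: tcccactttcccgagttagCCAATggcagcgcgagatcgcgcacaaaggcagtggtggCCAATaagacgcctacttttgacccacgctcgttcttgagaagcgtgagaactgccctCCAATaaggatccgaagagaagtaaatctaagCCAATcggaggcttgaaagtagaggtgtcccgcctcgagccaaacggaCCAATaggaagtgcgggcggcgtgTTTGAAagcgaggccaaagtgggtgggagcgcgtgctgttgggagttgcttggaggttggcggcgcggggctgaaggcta
AURKB: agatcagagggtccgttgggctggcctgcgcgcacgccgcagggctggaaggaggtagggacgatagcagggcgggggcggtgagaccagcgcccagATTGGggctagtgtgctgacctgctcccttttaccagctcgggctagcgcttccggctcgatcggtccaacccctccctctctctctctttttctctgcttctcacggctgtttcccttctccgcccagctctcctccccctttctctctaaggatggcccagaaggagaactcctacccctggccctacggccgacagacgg
BUB1: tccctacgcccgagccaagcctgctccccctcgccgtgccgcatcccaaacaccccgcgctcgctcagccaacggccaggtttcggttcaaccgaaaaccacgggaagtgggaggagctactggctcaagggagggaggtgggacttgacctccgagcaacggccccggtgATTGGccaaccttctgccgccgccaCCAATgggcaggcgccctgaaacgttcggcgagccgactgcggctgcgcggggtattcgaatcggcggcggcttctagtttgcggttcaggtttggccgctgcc
NDC80: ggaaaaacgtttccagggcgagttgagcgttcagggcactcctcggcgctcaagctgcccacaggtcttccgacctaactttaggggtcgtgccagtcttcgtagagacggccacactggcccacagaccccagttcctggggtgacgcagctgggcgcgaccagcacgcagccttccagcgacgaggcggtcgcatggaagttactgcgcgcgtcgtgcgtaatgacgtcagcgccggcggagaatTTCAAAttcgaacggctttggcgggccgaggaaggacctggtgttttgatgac
HJURP: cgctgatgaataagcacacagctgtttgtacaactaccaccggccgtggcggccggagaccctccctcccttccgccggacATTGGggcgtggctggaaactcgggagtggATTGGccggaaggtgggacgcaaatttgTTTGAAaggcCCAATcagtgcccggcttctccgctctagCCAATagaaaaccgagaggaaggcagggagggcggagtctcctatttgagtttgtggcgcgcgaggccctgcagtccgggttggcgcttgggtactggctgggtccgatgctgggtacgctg
PTTG1: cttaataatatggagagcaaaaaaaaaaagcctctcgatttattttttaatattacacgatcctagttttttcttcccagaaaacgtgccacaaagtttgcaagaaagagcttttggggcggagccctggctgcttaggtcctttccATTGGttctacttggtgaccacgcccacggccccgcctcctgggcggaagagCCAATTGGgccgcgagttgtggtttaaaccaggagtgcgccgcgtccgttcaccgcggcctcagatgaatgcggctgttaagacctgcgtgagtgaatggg
NUSAP1: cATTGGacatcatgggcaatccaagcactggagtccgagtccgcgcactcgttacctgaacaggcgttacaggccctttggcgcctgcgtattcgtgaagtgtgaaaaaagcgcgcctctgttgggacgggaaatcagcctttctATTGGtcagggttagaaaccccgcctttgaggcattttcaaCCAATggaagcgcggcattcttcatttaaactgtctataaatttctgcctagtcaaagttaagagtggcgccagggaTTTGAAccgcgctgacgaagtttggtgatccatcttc

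The windows are chr1:154974431-154974730 (plus strand) for CKS1B, chr17:8210176-8210475 (minus) for AURKB, chr2:110678014-110678313 (minus) for BUB1, chr18:2571307-2571606 (plus) for NDC80, chr2:233854486-233854785 (minus) for HJURP, chr5:160421605-160421904 (plus) for PTTG1 and chr15:41332631-41332930 (plus) for NUSAP1. CKS1B held 5 CCAAT matches and 1 TTTGAA that began 30 bases upstream of the start. HJURP held 4 CCAAT matches and 1 TTTGAA, 111 bases upstream. PTTG1 held 3 CCAAT matches, a pair of which overlap on opposite strands, and no TTTGAA. AURKB and BUB1 held 1 and 2 CCAAT matches and no TTTGAA in their windows. The annotated AURKB gene reaches upstream of its window, to chr17:8210600. NDC80 held 1 TTTGAA and no CCAAT, and NUSAP1 held 3 CCAAT matches and a TTTGAA downstream of the start.

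All 46 members were detected in every library. Their mean over the 4 libraries ran from 8.72 FPKM (SGOL1) to 299.5 FPKM (UBE2C), with a median of 60.8 FPKM against 10.7 FPKM over the 10998 genes that reached a mean of 1 FPKM, which are the genes tested. Of the 46, 45 lay at or above the median level of tested genes. Between the labelled groups, none of the 46 passed an adjusted p of 0.05 (limma on log2(FPKM + 1)), where 0.500% of tested genes did (0.109% higher and 0.391% lower with overexpression). At an unadjusted p below 0.05 there were 4 members (8.70%, against 7.34% of tested genes): CDC25B, CCNB2, CCNB1 and DLGAP5. The ratio of group means, overexpression over vector, ran from 0.834 (CDC25B) to 1.19 (CCNB2). No member's 95% interval reached a 1.5-fold difference in either direction, while the intervals of 26 members reached 0.32 on the log2 scale.

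**Figure D1:**
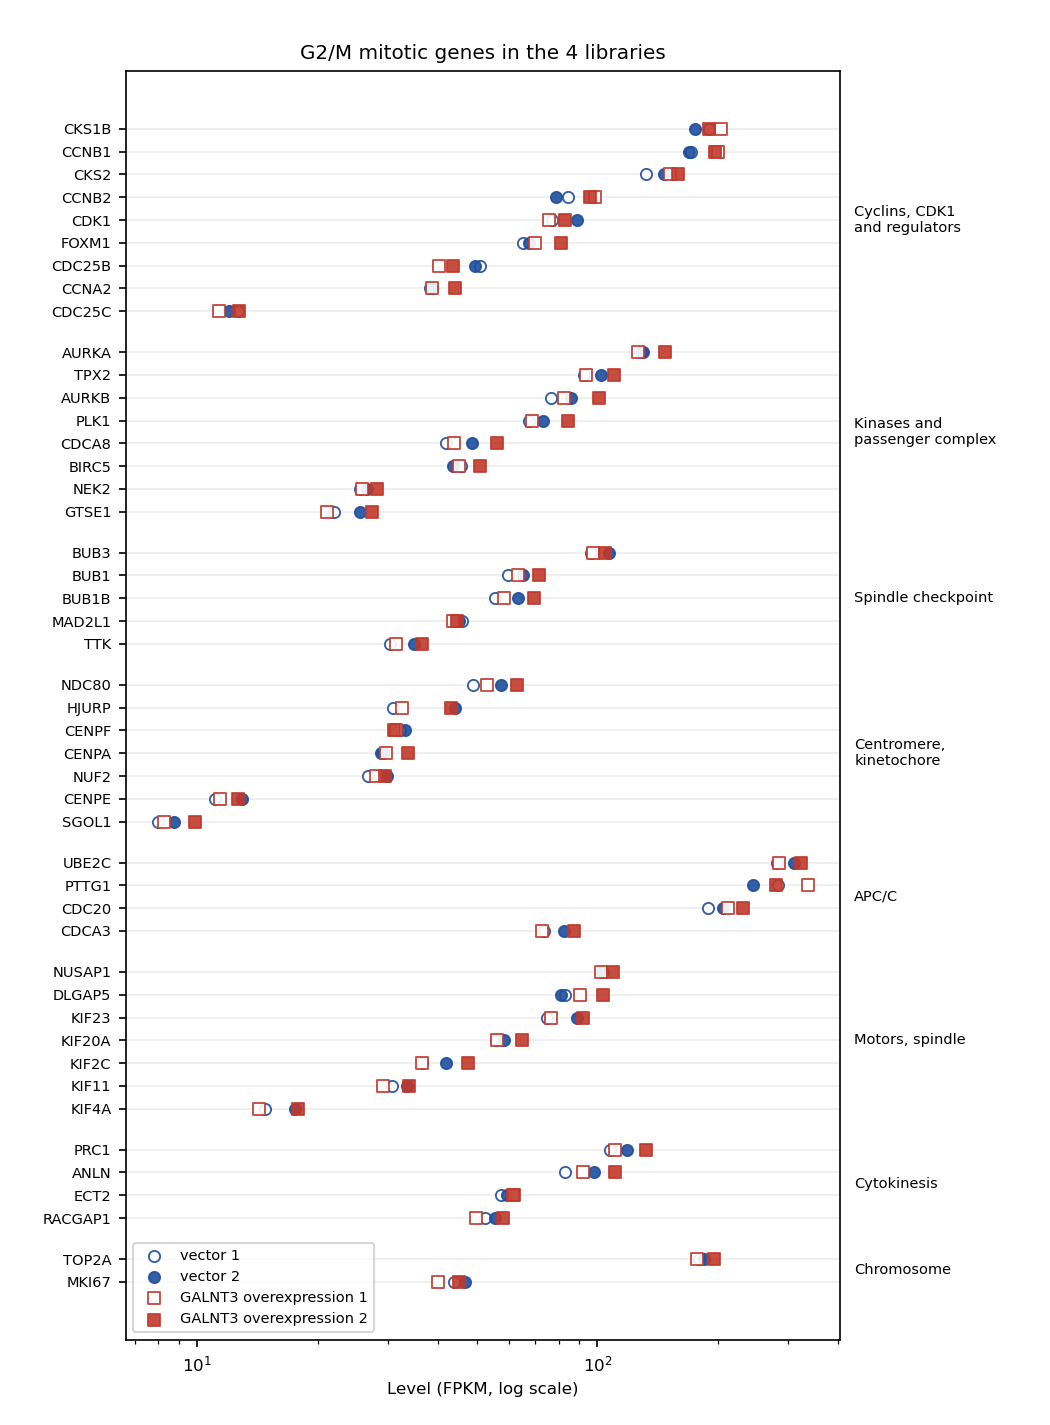
Level of each of the 46 members in the 4 libraries, in FPKM on a log axis, grouped by role. Circles are libraries labelled vector, squares those labelled GALNT3 overexpression, and filled symbols are libraries numbered 2. Open symbols lie to the left of filled ones in 30 members, and PTTG1 is the member with both number 2 libraries below both number 1 libraries.

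The cyclins, CDK1 and their regulators held 3 of the 4 members with the smallest p-values between groups. CCNB1, the main mitotic cyclin, stood at 171 and 169 FPKM in vector 1 and 2 and at 199.9 and 197 FPKM in overexpression 1 and 2. CCNB2, a second B-type cyclin, stood at 84.5 and 79.0 FPKM against 98.4 and 96.0 FPKM. Both overexpression libraries lay above both vector libraries for either cyclin. The differences were 0.22 ± 0.09 (SE, log2) for CCNB1, with an adjusted p of 0.641, and 0.25 ± 0.09 for CCNB2, with an adjusted p of 0.564 (limma). CDC25B, a phosphatase that activates cyclin-CDK1, went the other way, at 50.9 and 49.4 FPKM against 40.1 and 43.6 FPKM. Its groups did not overlap either, and its difference of -0.26 ± 0.09 had an adjusted p of 0.530 (limma). CKS1B, a small CDK-binding subunit, stood at 189.6 and 175.5 FPKM against 204.1 and 189.9 FPKM, so that overexpression 2 lay only just above vector 1 (0.11 ± 0.10, adjusted p = 0.891, limma). CKS2, its paralog, and FOXM1, the G2 transcription factor, also had both overexpression libraries above both vector libraries, with 132.1 and 146.8 against 152.0 and 159.4 FPKM for CKS2 and 65.3 and 67.3 against 69.8 and 80.8 FPKM for FOXM1. CDK1, CCNA2 and CDC25C overlapped between groups.

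Mitotic kinases and the chromosomal passenger complex overlapped between the groups in all 8 members. Over all tested genes, 20.9% had both overexpression libraries above both vector libraries and 15.3% had both below, and the rest overlapped. AURKA, the kinase of the spindle poles, stood at 128 and 129.9 FPKM in the vector libraries and at 126 and 148 FPKM in the overexpression libraries. TPX2, which activates AURKA, stood at 92.4 and 101.9 FPKM against 93.4 and 110.0 FPKM. For both, overexpression 2 was the highest library, and both libraries numbered 2 lay above both numbered 1. CDCA8 (borealin, of the passenger complex) stood at 41.9 and 48.6 against 43.9 and 56.2 FPKM. GTSE1, a microtubule-binding protein of G2, stood at 22.0 and 25.5 against 21.1 and 27.3 FPKM. CDCA8 and GTSE1 also had both libraries numbered 2 above both numbered 1. PLK1, AURKB and NEK2, which are mitotic kinases, did so too, and BIRC5 (survivin) did not. Of all tested genes, 13.6% had that order. The median difference between groups over the 8 genes was 0.091, against 0.016 over all tested genes.

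None of the 5 spindle checkpoint genes passed the adjusted threshold in either comparison (limma). At an unadjusted p below 0.05, none differed between groups, and 4, all but MAD2L1, stood higher in number 2 (6.70% of tested genes did). BUB3, which brings BUB1 and BUB1B to kinetochores, stood at 96.1 and 106.9 FPKM in the vector libraries and at 97.2 and 104.5 FPKM in the overexpression libraries. BUB1, a checkpoint kinase, stood at 59.7 and 65.1 against 63.3 and 71.3 FPKM. Both overlapped between groups and stood higher in the libraries numbered 2, as did BUB1B and the kinase TTK. MAD2L1, the inhibitor of CDC20, stayed within 43.5 and 46 FPKM in all 4 libraries.

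At the centromere and kinetochore, HJURP differed most. HJURP, the chaperone that loads the centromeric histone CENPA, stood at 30.9 and 44.1 FPKM in vector 1 and 2 and at 32.5 and 43.2 FPKM in overexpression 1 and 2. The pair numbered 2 was far above the pair numbered 1, and the groups overlapped almost completely (0.022 ± 0.19 between groups, adjusted p = 0.994, limma). NDC80, the microtubule-binding subunit of the outer kinetochore, stood at 48.8 and 57.5 against 52.9 and 62.9 FPKM, again with both number 2 libraries on top. CENPA stood at 29.1 and 28.8 against 29.6 and 33.6 FPKM, and thus did not share the order of its chaperone. CENPE, NUF2 and SGOL1 had number 2 above number 1, and CENPF stayed within 31.0 to 33.1 FPKM.

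The anaphase-promoting complex activator, its E2 enzyme and its substrates were the most abundant role group, with a median of 247 FPKM. UBE2C, the E2 that starts ubiquitin chains, stood at 281 and 310.3 FPKM in the vector libraries and at 284 and 322 FPKM in the overexpression libraries. PTTG1, securin, which keeps separase inactive until anaphase, stood at 283 and 244 against 335 and 279.8 FPKM. UBE2C stood higher in the libraries numbered 2, and PTTG1 stood lower in them. The near-identical copies PTTG2 and PTTG3P were at most 0.737 FPKM in any library. CDC20, the activator that the checkpoint inhibits, stood at 189 and 206 against 212 and 231 FPKM, with the groups apart (0.17 ± 0.10, adjusted p = 0.805, limma). CDCA3 overlapped between groups.

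Among motors and spindle proteins, NUSAP1, which bundles spindle microtubules, stood at 103 and 102.5 FPKM in the vector libraries and at 102.0 and 109 FPKM in the overexpression libraries. DLGAP5, which stabilises kinetochore fibres, stood at 83.0 and 81.2 against 90.3 and 103 FPKM. The groups overlapped for NUSAP1 and were apart for DLGAP5, whose difference of 0.23 ± 0.10 had an adjusted p of 0.673 (limma). KIF23, the motor of the centralspindlin complex, stood at 74.9 and 89.1 against 76.4 and 92.1 FPKM. KIF2C, a microtubule depolymerase of the centromere, stood at 36.4 and 41.9 against 36.5 and 47.4 FPKM. For both motors the number 1 libraries of the groups were within a few percent of each other and below the number 2 libraries. The other motors KIF11, KIF20A and KIF4A also had number 2 above number 1. KIF4B, a retrocopy of KIF4A, stood at 0.399 to 0.434 FPKM.

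Cytokinesis genes and chromosome markers complete the set. PRC1, which crosslinks the midzone microtubules, stood at 107.7 and 119 FPKM in the vector libraries and at 111 and 132 FPKM in the overexpression libraries. ANLN (anillin, a scaffold of the contractile ring) stood at 82.8 and 97.8 against 92.0 and 110.3 FPKM. Both stood higher in number 2 in each group. ECT2, the exchange factor that activates RhoA at the furrow, had the groups apart by little, at 57.3 and 59.3 against 61.4 and 61.8 FPKM. RACGAP1, its centralspindlin partner, overlapped. TOP2A, topoisomerase II alpha, stood at 179 and 184 against 177 and 196 FPKM. MKI67, the proliferation marker Ki-67, stood at 43.7 and 46.6 against 39.9 and 45.2 FPKM. Neither TOP2A nor MKI67 separated the groups, and the median difference of the pair was -0.025.

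Counted over the set, both overexpression libraries lay above both vector libraries in 9 members (19.6%, against 20.9% of tested genes) and below them in 3 (6.52%, against 15.3%). The 9 were CCNB1, CCNB2, CKS1B, CKS2, FOXM1, CENPA, CDC20, DLGAP5 and ECT2, and the 3 were CDC25B, MAD2L1 and CENPF. The share above is close to the background. The median difference between groups was 0.076 over members and 0.016 over tested genes. The member median was -0.030 without overexpression 2 and 0.18 without overexpression 1. With the replicate number as a block, 2 members passed, PTTG1 (adjusted p = 0.0458, limma) and CCNB2 (adjusted p = 0.0459), and 443 genes passed in place of 55. The 2 members are 4.35% of the set, near the 4.03% of tested genes that passed this fit.

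Within replicate number 1, the overexpression library was below the vector library by at least 0.32 on the log2 scale in 1 member, CDC25B (-0.34, 4.47% of tested genes past it), and above it by as much in none (2.21%). Within number 2, 1 member was higher by that much, DLGAP5 (0.34, 4.66% of tested genes), and none was lower (3.51%). Neither gene passed it in both, and with 1 library a group there is no test. Without such a limit, overexpression was above vector in 31 members within number 1 (46.4% of tested genes) and in 37 within number 2 (61.1%). The same 27 members were higher in both (35.7%), 5 were lower in both (28.1%), and 14 had opposite signs. The 5 were CDK1, CDC25B, MAD2L1, CENPF and MKI67. CCNB1 gave 0.22 in each number, CCNB2 0.22 and 0.28, CKS2 0.20 and 0.12, PTTG1 0.24 and 0.19, and CDC20 0.17 in each. The medians over members were 0.024 in number 1 and 0.11 in number 2, beside -0.011 and 0.044 over tested genes.

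**Figure D2:**
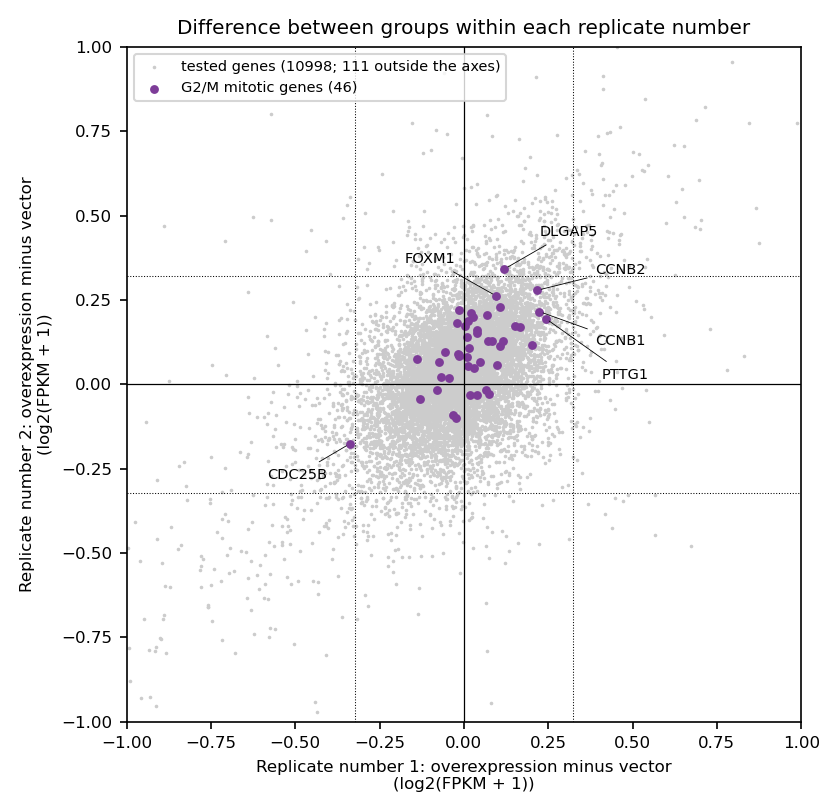
Difference between overexpression and vector libraries on the log2(FPKM + 1) scale within replicate number 1 (horizontal axis) and within number 2 (vertical axis). Purple points are the 46 members, grey points the tested genes, and dotted lines mark 0.32 in either direction. CDC25B lies past the line for number 1 and DLGAP5 past that for number 2, and no member lies past both.

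Most of these genes stood higher in the libraries numbered 2, whichever their label. Set against its own mean over the libraries, the median member stood at -0.094 in vector 1, -0.063 in overexpression 1, 0.015 in vector 2 and 0.14 in overexpression 2. By this median vector 2 lay between the libraries numbered 1 and overexpression 2, a little nearer to vector 1 than to overexpression 2. Both number 2 libraries lay above both number 1 libraries in 30 of 46 members (65.2%, against 13.6% of tested genes) and below them in 1, PTTG1 (2.17%, against 33.3%). Number 2 was above number 1 within the vector group in 35 members (29.4% of tested genes) and within the overexpression group in 41 (43.6%), in both groups in 34 (20.8%), and below it in both groups in 4 (47.7%). Past 0.32 on the log2 scale, number 2 was higher in 1 member within the vector group, HJURP (1.78% of tested genes), and in 4 within the overexpression group (2.98%), and it was lower in none within either group (7.24% and 4.58%). The median difference, number 2 minus number 1, was 0.13 over members and -0.056 over tested genes. Within the vector group the medians were 0.12 and -0.081, and within the overexpression group 0.19 and -0.025. These medians and shares are of FPKM without further scaling, and the background depends on it. Over tested genes the median difference between numbers was -0.018 with median centring of each library and -0.0031 with quantile normalization.

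With the label as a term in the fit, 8 members passed an adjusted p of 0.05 between replicate numbers (17.4%, against 6.49% of tested genes), 7 of them higher in number 2 (15.2%, against 1.70%) and 1 lower (2.17%, against 4.79%). At an unadjusted p below 0.05, 23 members were higher (6.70% of tested genes) and 1 was lower (19.3%). HJURP, given above, was 1.38-fold higher (0.45 ± 0.07, adjusted p = 0.00959, limma). The spindle motors KIF2C (0.28 ± 0.07, adjusted p = 0.0401) and KIF23 (0.26 ± 0.06, adjusted p = 0.0331) were higher, as was the contractile ring scaffold ANLN (0.25 ± 0.06, adjusted p = 0.0347). Also higher were CDCA8 (0.28 ± 0.07, adjusted p = 0.0372), GTSE1 (0.28 ± 0.07, adjusted p = 0.0466) and NDC80 (0.24 ± 0.06, adjusted p = 0.0461). Securin was lower, with PTTG1 at 0.849 of its number 1 level (-0.23 ± 0.05, adjusted p = 0.0312, limma). Each of the 8 had both libraries of one number apart from both of the other. AURKB and KIF4A stood just outside, at adjusted p-values of 0.0543 and 0.0552 (limma).

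These 8 calls are weak. The fit left 1 residual degree of freedom, and simulated data gave more false calls than the nominal rate. All 8 were lost without the mean-variance trend (adjusted p from 0.0562 to 0.130, limma), with the replicate number as the only term (0.281 to 0.439), and with every gene above 0 tested (0.245). The calls were also lost with any 1 library left out. Those fits had the replicate number as the only term too, so they are no separate check. The PTTG1 call was also lost with each library centred on its median (adjusted p = 0.0555, limma) and with quantile normalization (0.123). Centring raised the number of members called to 16, all higher in number 2, and turned the split over all genes from 187 higher and 527 lower to 338 and 335.

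**Figure D3:**
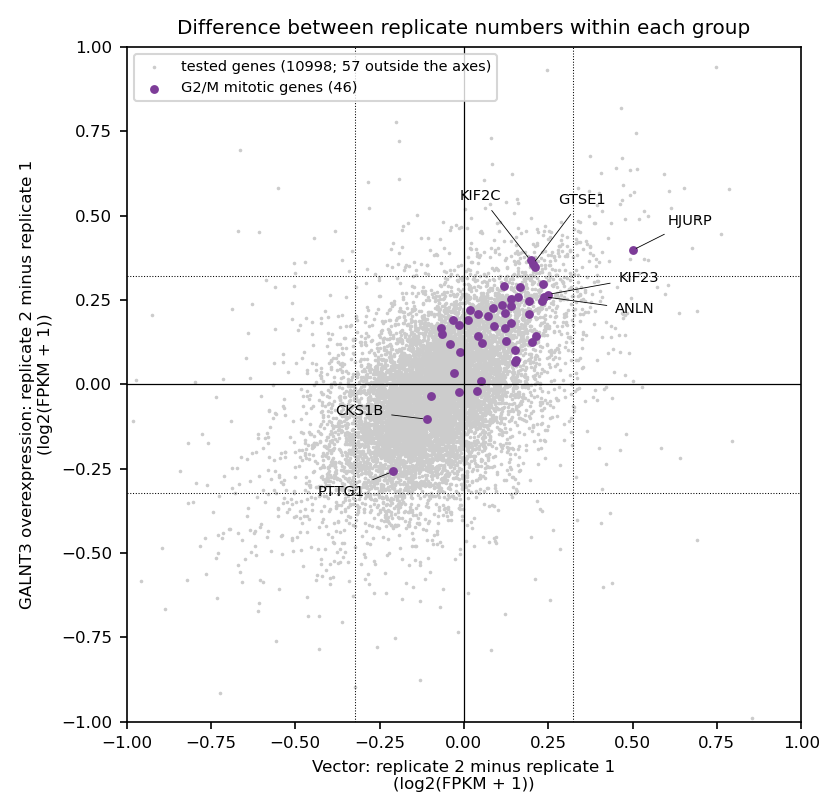
Difference between replicate numbers 2 and 1 on the log2(FPKM + 1) scale within the vector group (horizontal axis) and within the overexpression group (vertical axis). Purple points are the 46 members, grey points the tested genes, and dotted lines mark 0.32 in either direction. Of the members, 34 lie above 0 on both axes and 4 below 0 on both, with HJURP farthest to the right and PTTG1 lowest.

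Role groups shared this order to different degrees. Both number 2 libraries were on top in 7 of 8 kinases and passenger proteins, 4 of 5 checkpoint genes, 5 of 7 kinetochore genes, 5 of 7 motor and spindle genes, 3 of 4 cytokinesis genes and both chromosome markers, where 13.6% of tested genes had that order. In the anaphase group they were on top in 2 of 4 genes, UBE2C and CDCA3, and both below in PTTG1. Among the 9 cyclins, CDK1 and regulators they were on top in 2, CDK1 and CCNA2. CKS1B, CCNB1, CCNB2 and PTTG1 were the 4 members lower in number 2 within both groups. The median difference between numbers was 0.042 for the cyclin group and lay between 0.11 and 0.20 for the other 7 groups. Members with TTTGAA in their window had a median of 0.15 (26 genes) and those without it 0.12 (12 genes).

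**Figure D4:**
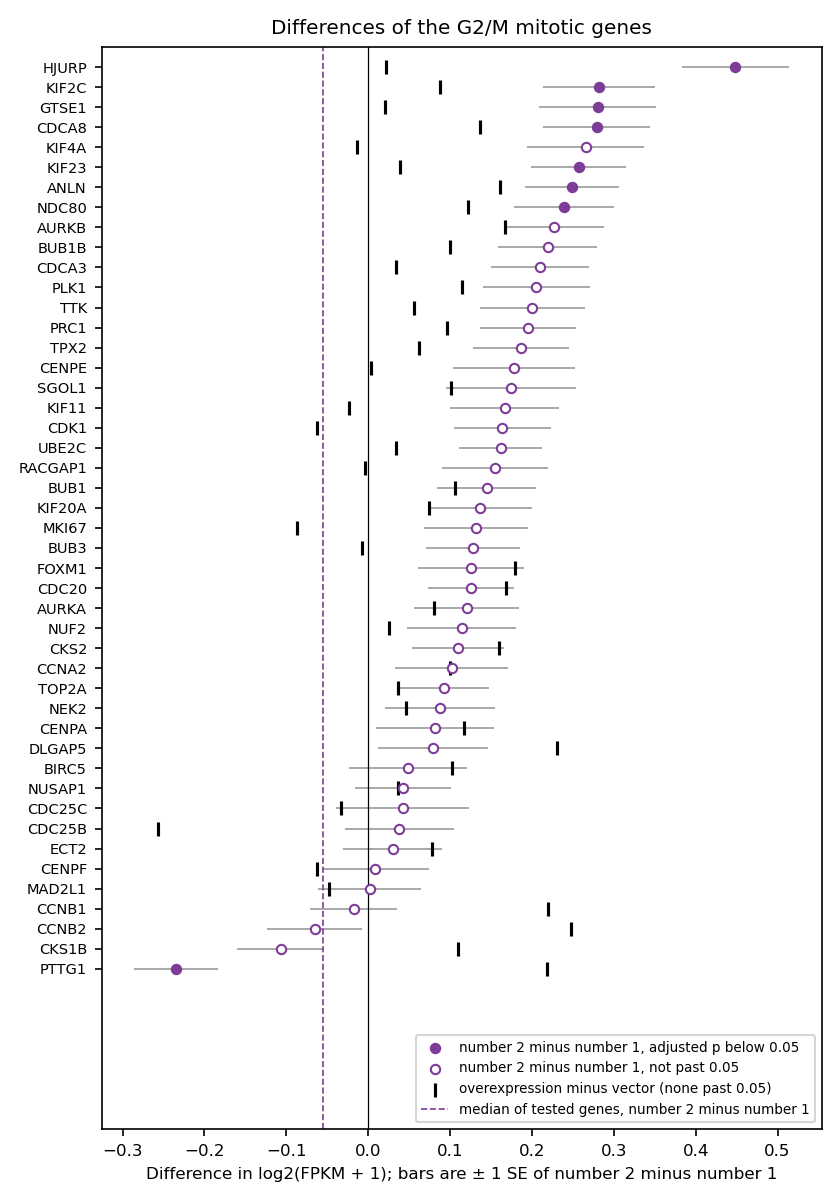
Difference between replicate numbers for each member (circles, with bars of 1 SE) and difference between labelled groups (black ticks), both on the log2(FPKM + 1) scale and ordered by the former. Filled circles are the 8 members with an adjusted p below 0.05 between numbers, from HJURP at 0.45 to PTTG1 at -0.23. The dashed line is the median of tested genes, at -0.056.

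Other genes of the cell cycle were counted from lists. Of 53 further mitotic genes, 34 had both number 2 libraries above both number 1 libraries (64.2%, against 13.6% of tested genes) and 5 passed as higher in number 2 (9.43%, against 1.70%), with a list median of 0.11. KIF18B, a mitotic kinesin, stood at 17.7 and 23.7 FPKM in vector 1 and 2 and at 17.8 and 25.9 FPKM in overexpression 1 and 2 (0.46, adjusted p = 0.0106, limma). ARHGAP11A, a GTPase-activating protein (0.35, adjusted p = 0.0270), BORA, the activator of AURKA (0.38, adjusted p = 0.0276), and CDCA5 (sororin, 0.29, adjusted p = 0.0346) were higher in number 2 as well. The fifth was ESPL1, separase, the protease that securin holds inactive, at 17.8 and 20.8 against 15.0 and 21.0 FPKM (0.34, adjusted p = 0.0375, limma), and it is named here, outside the rule for named genes, as the partner of PTTG1, chosen after its values were seen. Securin and separase differed between numbers in opposite directions.

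Of the 16 tested genes of 17 in the anaphase-promoting complex list, none passed between numbers at the adjusted threshold (limma) and 2 did at an unadjusted p below 0.05 (12.5%, against 26.0% of tested genes), with a list median of 0.037. Of 18 DREAM, MuvB and E2F regulators, E2F4 passed as higher in number 2 (0.25, adjusted p = 0.0332, limma), and the median was 0.0068. That 1 gene is 5.56% of the list, near the 6.49% of tested genes called in either direction. Of the 16 tested brakes and checkpoint genes, 2 passed as higher (12.5%, against 1.70% of tested genes) and 3 as lower (18.8%, against 4.79%), with a median of -0.061. PKMYT1, the kinase that inhibits CDK1, stood at 24.0 and 32.1 FPKM in the vector libraries and at 23.8 and 31.6 FPKM in the overexpression libraries (0.40, adjusted p = 0.0127, limma). CCNG2 (-0.56, adjusted p = 0.0202) and CCNG1 (-0.31, adjusted p = 0.0314), atypical cyclins, were lower, while the stress gene GADD45A was higher (0.30, adjusted p = 0.0393, limma). The fifth, CDKN1B (p27, a CDK inhibitor), was lower by a similar margin (-0.32, adjusted p = 0.0436) and is named outside the rule, after its values were seen. Of 43 G1/S and replication genes, POLE, a replicative polymerase, passed as higher (0.32, adjusted p = 0.0312, limma), and CDK6 (-0.34, adjusted p = 0.0346) and CCNE1 (-0.30, adjusted p = 0.0461) as lower, with a median of 0.016. The 3 calls are 6.98% of the list, again near the 6.49%. No gene of these 5 lists passed between the labelled groups (limma), where 7 of 146 did at an unadjusted p below 0.05 (4.79%, against 7.34% of tested genes). The loss of calls under the other fits was not followed gene by gene for these lists, but 92 genes in all, in place of 714, passed without the trend.

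**Figure D5:**
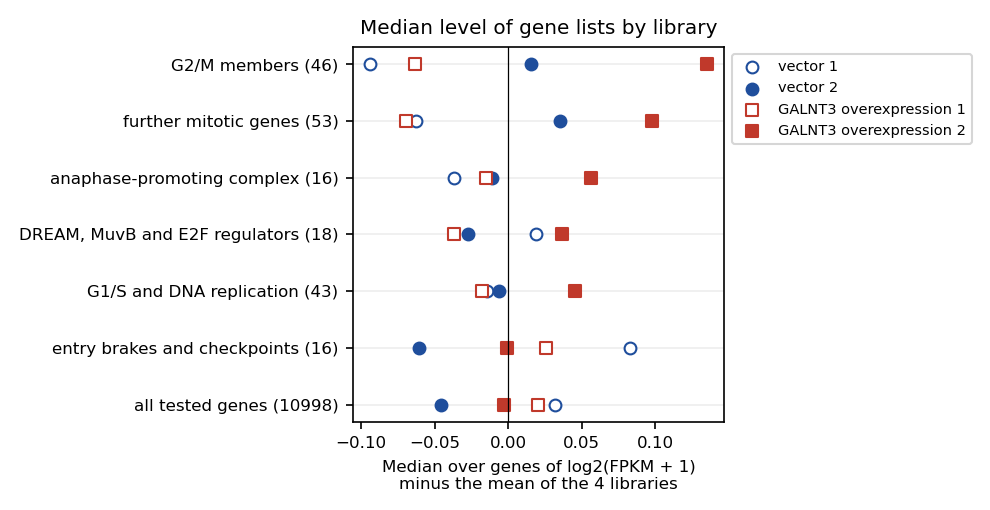
Median over each gene list of the log2(FPKM + 1) level in a library minus the mean of the 4 libraries. Circles are vector and squares overexpression libraries, filled for number 2, and the numbers in brackets are genes tested. For the 46 members the libraries numbered 1 stand at -0.094 and -0.063 and those numbered 2 at 0.015 and 0.14, while all tested genes stay within 0.05 of 0.

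Transcript length and gene overlap were measured beside these values. Across the 46 members, Spearman's rho between the longest annotated transcript and the difference between groups was -0.44, against -0.14 over 10091 tested genes, with the same 4 libraries behind every gene. The rho with the difference between numbers was 0.21, against 0.077. Of the members, 10 overlap an exon of a listed gene on the opposite strand and none on the same strand. The part of length or overlap in the differences was not tested.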

How the data were processed

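RNA of 4 libraries was measured, 2 per labelled group. The authors deposited 1 column of FPKM per library for 20252 symbols. No unit stands in the header. That they are FPKM was inferred, since they are not whole, their sums differ (401366 to 448194 per library), and in low genes they shrink with transcript length. The submitters' processing notes list TopHat, GenomeStudio 2010.1, GRCh38 and hg19, without their roles. For the counter, the annotation and strand use, the source is silent (not given in the sources used here). Total reads are unknown, and the relative depth estimated from low values ran from 0.966 to 1.07. FPKM divides by each library's total, so abundant genes can move all others. Of the rows, 2640 stood out of alphabetical order, none of them a member.

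The 10998 genes whose mean reached 1 FPKM were tested with limma 3.58.1 in R 4.3.3 on log2(FPKM + 1), with a mean-variance trend and Benjamini-Hochberg adjustment over all of them, at 0.05. The pseudocount of 1 understates changes of low genes. The group fit had 2 residual and 5.34 prior degrees of freedom, and the fit of replicate number with group as a term had 1 and 9.02. An exact permutation test of 2 against 2 libraries cannot go below p = 0.333. Differences within a number are 1 library against 1 and have no test, and a log2 limit of 0.32 was used there. The fits were tested on simulated data. For replicate numbers, false calls exceeded the nominal rate in both simulations tried, and by much more in the first. The second drew the spread from limma's own model, an easier test.

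The members and lists were chosen with earlier results of these data known. Values in every library are given for the 2 most abundant members of each role group, members passing a threshold, members past that limit in both numbers and the 4 smallest p-values between groups. CKS2, FOXM1, CENPA, CDC20, ECT2, MAD2L1 and CENPF, shown as well, were added after their values were seen. From other lists, at most 4 passing genes by smallest p are named. Sequences are from RefSeq, transcript lengths and positions from GENCODE on GRCh38. Protein sequences were not used here. One item of the marker lists is not reported here. Alternatives changed the pseudocount, filter, scaling, trend, block and libraries.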

Additional observations from a re-analysis of the deposited data

How the results depend on the processing

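Depth per library is unknown and there are 2 libraries per group, so precision rests on those 4 values (the 95% intervals of members between groups reached -0.46 and 0.52 in log2). Between groups no member passed under any alternative but the replicate block, where 2 did. The counts of members by the order of libraries, and their alternatives, were chosen after seeing the data. These are the counts with both number 2, or both overexpression, libraries on top. The counts past a limit within a replicate number were planned, with earlier results of these data known.

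Genes passing between groups (55) numbered 31 at a mean of at least 5 FPKM, 12 with every gene above 0 tested and 443 with the replicate block. Leaving out 1 library gave 23 to 83 genes, no member, and member medians from -0.030 to 0.18. The labels do not say whether replicate numbers pair the libraries. Deviations of same-numbered libraries correlated at r = 0.22 across tested genes, over only 2 pairs, which does not settle it. GALNT3 passed in every alternative that tested it.

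Between numbers, the 714 genes and 8 members became 1288 and 17 at a mean of at least 5 FPKM, 6 and 0 with every gene tested, 445 and 16 with quantile normalization, 1423 and 16 with genes listed at 0 left out, 92 and 0 without the trend, and 6 and 0 with the replicate number as the only term. Median centring gave 16 members. Alternatives that changed the filter also changed the number of genes tested. Their gene counts are not out of 10998, and no background share stands beside their member counts. The alternatives of scaling, trend and terms tested the same 10998 genes. The member median became 0.20 with quantile normalization. Leaving out 1 library, which used the replicate number as the only term, gave 11 to 14 genes (13 without overexpression 1), 0 members and medians from 0.11 to 0.19.

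Members with both overexpression libraries on top fell from 9 to 4 with quantile normalization. That scaling also moved the median difference between groups over all tested genes, from 0.016 to 0.0027. The share of tested genes in that order under it is not given here, so the fall is not read as particular to the members. The count past the fold within number 1 was 0 with a pseudocount of 5, median centring or a fold of 1.5, and within number 2 it was 0 with median centring, quantile normalization or a fold of 1.5.

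Signs were followed for the 22 members whose values the rule for named genes gives by library, not for the other 24. Of those 22, with quantile normalization the difference between groups changed sign for AURKA (-0.013), HJURP (-0.033), UBE2C (-0.058), NUSAP1 (-0.022), TOP2A (-0.042), KIF23 (-0.0071) and GTSE1 (-0.011), none of which had passed. Leaving out 1 library changed the sign for AURKA (-0.031 to 0.19), BUB3 (-0.084 to 0.068), CDCA8 (-0.037 to 0.31), GTSE1 (-0.16 to 0.20), HJURP (-0.23 to 0.27), KIF23 (-0.094 to 0.17), KIF2C (-0.096 to 0.27), MKI67 (-0.17 to 0.00061), NDC80 (-0.0012 to 0.25), NUSAP1 (-0.011 to 0.084), PRC1 (-0.030 to 0.22), TOP2A (-0.035 to 0.11), TPX2 (-0.054 to 0.18) and UBE2C (-0.058 to 0.13). The cause of these changes was not tested.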
